A study of Mus musculus with 4 samples.

Results

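The hedgehog ligand Shh, its receptor Ptch1, the transducer Smo, the antagonist Hhip and the co-receptors Cdon, Boc and Gas1 were followed through the cell lineages of the E10.5 mouse heart. These 7 genes were chosen by symbol from the 32285 genes of the count tables, and all 7 were found. The choice was made with earlier results of these data known. Hearts came from wild-type C57BL/6J embryos (libraries Wt1 and Wt2) and from embryos homozygous for the Cyp51 I383V allele, made with CRISPR/Cas9 (Ho1 and Ho2). Cyp51 encodes an enzyme of cholesterol synthesis. The labels name CRISPR/Cas9 as the treatment of all 4 samples, the wild-type ones included, and do not say how many embryos entered a library, so p-values measure the spread between libraries. The counts do not read the I383V change, and the genotypes were not checked from them.

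Hedgehog ligands are secreted proteins that carry a covalently bound cholesterol. In their absence Ptch1 holds Smo inactive, and ligand binding to Ptch1 releases Smo, which acts through the Gli transcription factors at the primary cilium. Cdon, Boc and Gas1 bind the ligand at the receiving cell surface, Hhip binds it and limits its reach, and Ptch1, Hhip and Gli1 are themselves transcribed in responding cells. Around the embryonic heart, the foregut and pharyngeal epithelia are the known source of Shh, and the neighbouring splanchnic and pharyngeal mesenchyme with the progenitors of the outflow tract and atria is the known receiving tissue.

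To map senders and receivers, single cells were sorted in silico by lineage markers other than the 7 genes. One of these markers, Foxf1, is itself a hedgehog response gene. A cell entered the Tnnt2 gate (cardiomyocytes) with at least 6.60 Tnnt2 UMIs per 10000, the Cdh5 (endothelium), Upk3b (epicardium and mesothelium) or Epcam (epithelium) gate with at least 2 UMIs of that gene, and otherwise, in this order, the Isl1 gate with 1 UMI, the Crabp1+Foxf1 gate (pharyngeal and splanchnic mesenchyme) with 2 Crabp1 UMIs and 1 Foxf1 UMI, or the Hapln1 gate (cushion mesenchyme) with 2 UMIs. A UMI is a unique molecular identifier and stands for 1 captured mRNA molecule. UMIs were summed per gate and library and are given as counts per 1000000 UMIs of that sum (CPM). The cells summed numbered 8908, 7154, 6980 and 6126 in Wt1, Wt2, Ho1 and Ho2, and held 97004419, 105384571, 113596628 and 98459742 UMIs. Of the cells, 6.37% lay within 2 times the Tnnt2 limit on either side.

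Library Ho1 stood apart, since it had no cell in the Epcam gate and few in the Crabp1+Foxf1 gate. The Epcam gate held 452 cells of Wt1, 181 of Wt2, 264 of Ho2 and 0 of the 6980 cells of Ho1. A count of 0 there limits the share to 0.0430% (3 cells). With 1 Epcam UMI as the limit, 9 cells of Ho1 entered the gate, and with doublets kept 1 did. The Crabp1+Foxf1 gate held 217, 40 and 49 cells in Wt1, Wt2 and Ho2, and 3 in Ho1. In both gates the comparison was therefore made between 2 Wt libraries and Ho2 alone, which was assumed to vary like the Wt libraries. The Isl1 gate held 1847, 1087, 211 and 1020 cells in Wt1, Wt2, Ho1 and Ho2, and its make-up differed too. In the 211 cells of Ho1 the level of Tbx1, a factor of the outflow progenitors, was 0.300 CPM, against 18.7 to 27.1 in the other libraries. Foxf1 was 1.80 CPM against 41.0 to 106.7, and Isl1 itself 101.3 against 219.0 to 282.6. The summed CPM of 6 cushion mesenchyme markers was 2128, against 615 to 934, and that of 7 cardiomyocyte markers 801, against 267 to 447. The part of this make-up in the Ho1 levels of the Isl1 gate was not tested. Library Wt1 stood apart in another way, since 30.9% of its cells met no gate, against 5.93% to 9.57% in the other libraries. These 2756 cells, with a median of 5511.5 UMIs, held 36.7% of the Gas1, 30.7% of the Smo, 25.04% of the Boc, 21.3% of the Ptch1 and 16.7% of the Cdon UMIs of Wt1, which the levels by gate leave out. Between 14 and 34 cell barcodes were shared by any pair of libraries, 0.175% to 0.425% of the smaller one.

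Shh was found almost solely in the Epcam gate. Of 801 Shh UMIs in all cells, 786 (98.1%, exact 95% binomial interval 96.9 to 98.9) lay in this gate, which held 897 of 29168 cells. The share was 144 of 147 UMIs in Wt1, 84 of 88 in Wt2 and 558 of 566 in Ho2, and Ho1 had no Shh UMI. Outside it, 2 UMIs each were counted in the Tnnt2, Isl1 and Hapln1 gates and 1 in the Cdh5 gate, and none in the Upk3b and Crabp1+Foxf1 gates, and 8 lay in cells of no gate or of more than 1. The gate held all 7 epithelial markers in each of these libraries, with a summed CPM of 2462 in Wt1, 2320 in Wt2 and 2810 in Ho2. The gene lies on chromosome 5 of the mouse genome GRCm38, from 28456815 to 28467256 on the minus strand.

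**Figure D1:**
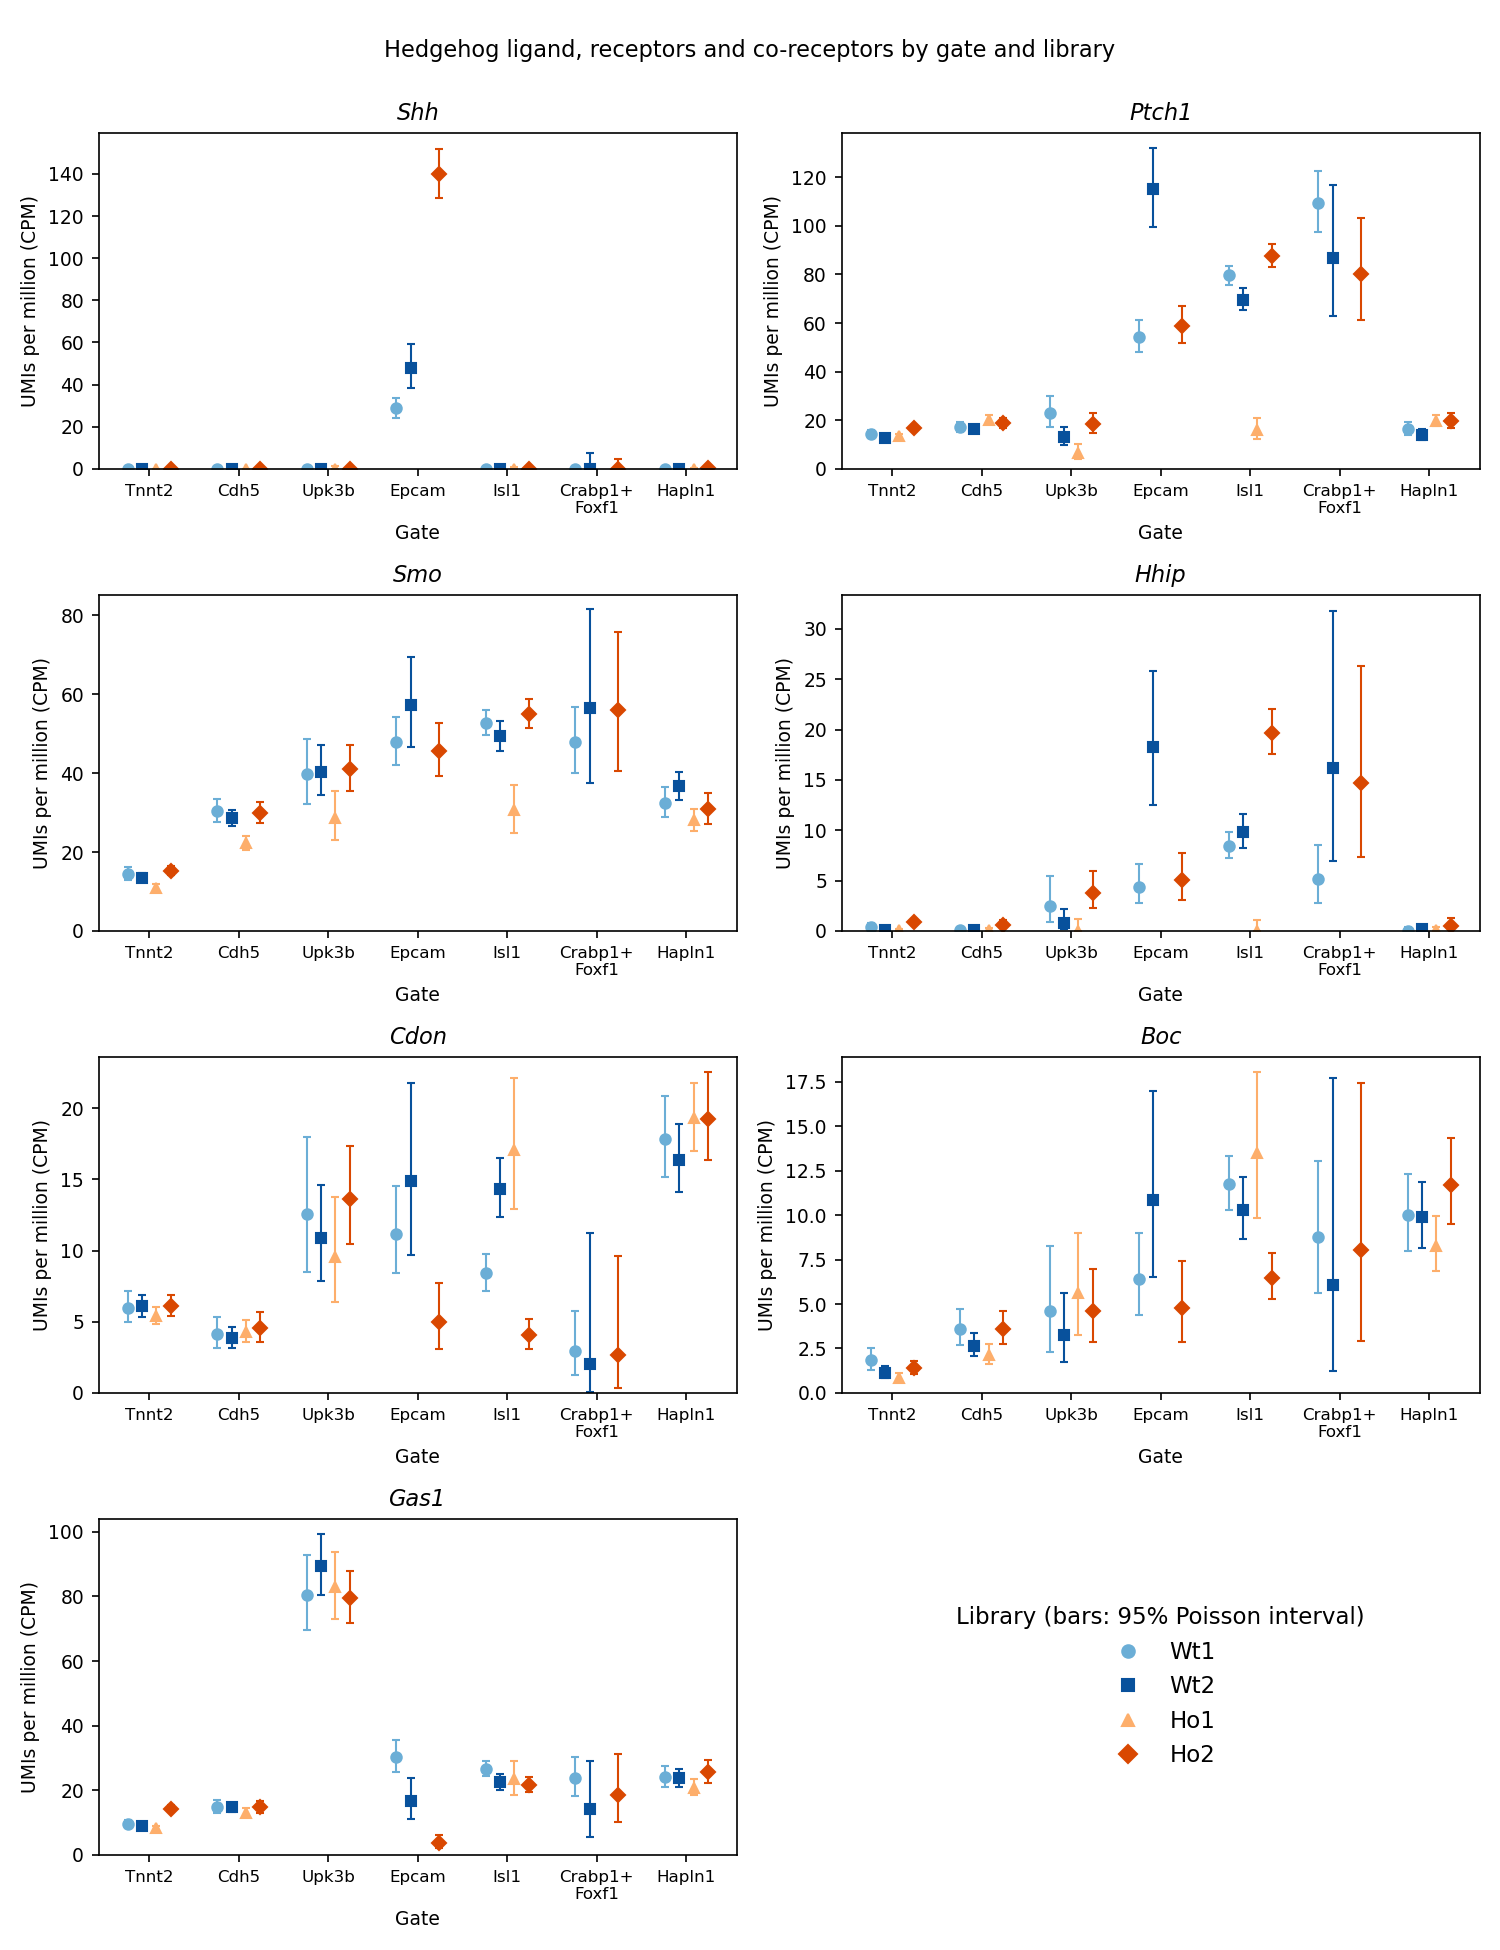
Level of each of the 7 members (y axis, CPM of the gate's UMIs, from 0) in the 7 gates (x axis), with 1 point per library (blue, Wt1 and Wt2; orange, Ho1 and Ho2) and exact 95% Poisson bars that cover counting error only. Shh rises above the baseline only in the Epcam gate, Ptch1 and Hhip are high in the Epcam, Isl1 and Crabp1+Foxf1 gates, and Gas1 is highest in the Upk3b gate. Ho1 has no point in the Epcam and Crabp1+Foxf1 gates, where it had under 20 cells.

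Within the Epcam gate Shh was higher in Ho2 than in both Wt libraries. The level was 28.7 CPM in Wt1 (exact 95% Poisson interval 24.2 to 33.8), 48.1 in Wt2 (38.3 to 59.5) and 139.9 in Ho2 (128.6 to 152.0), against a Wt mean of 38.4 ± 13.7 CPM (SD, n = 2). The difference had a log2 fold change of 2.06 (SE 0.30, edgeR quasi-likelihood test with Benjamini-Hochberg adjustment, adjusted p = 1.07e-05). In gates on cells thinned to 5000 UMIs it was 2.27 and not called (edgeR adjusted p = 0.0537). All 7 members passed the filter on low counts in this gate, and Shh and Gas1 were the 2 members called, where 191 of 12223 genes (1.56%) were called. Not only the level but the number of cells differed. A Shh UMI was found in 47 of 452 cells of Wt1 (10.4%), 38 of 181 of Wt2 (20.99%) and 170 of 264 of Ho2 (64.4%). With every cell thinned to 5000 UMIs, which left out 52, 20 and 8 shallower cells, these were 32 of 400, 25 of 161 (15.5%) and 109 of 256 (42.6%) cells. In the Cdh5 gate, as a lineage not known to make Shh, the thinned share was 0 of 955, 0 of 1524 and 0 of 937 cells in the same libraries, with median depths of 13902, 16375.5 and 17059 UMIs against 10825, 9457 and 14252.5 in the Epcam gate. Cells with Shh carried a median of 2, 2 and 3 UMIs of it and at most 14, 7 and 15.

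The epithelium recovered was not the same in the 3 libraries. Cells with a UMI of Nkx2-1, a factor of thyroid and lung epithelium, and none of the thyroid factor Pax8 made up 24 of 452 cells in Wt1 (5.31%), 14 of 181 in Wt2 (7.73%) and 135 of 264 in Ho2 (51.1%). Cells with Pax8 made up 15.3%, 48.1% and 15.5% of the gate in Wt1, Wt2 and Ho2. Those with Pax1 or Pax9, factors of the pharyngeal pouches, made up 37.4%, 4.97% and 4.92%. Named genes moved with this. UMIs of Wnt7b, a ligand of lung epithelium, numbered 12, 1 and 263 in Wt1, Wt2 and Ho2, and those of the surfactant protein gene Sftpa1 numbered 0, 0 and 133. Fgf8, a ligand of the pharyngeal epithelium, had 567, 1 and 0 UMIs, so that the Wt libraries also differed from each other. Markers of other cell types moved as well. Crabp1 was the most abundant of 6 markers of splanchnic and pharyngeal mesenchyme. It stood at 239.7, 152.2 and 39.9 CPM in Wt1, Wt2 and Ho2 (log2 fold change -2.18). The summed CPM of the 6 was 275.6, 196.8 and 84.0, most of it Crabp1 in Wt1 and Wt2. The other markers of this list went both ways and were not called. Osr1 (1.17), Wnt2 (0.96) and Foxf1 (0.30) were higher in Ho2, and Prrx1 (-1.06) and Pdgfra (-1.03) lower. The sum of 5 neural markers was 32.9, 29.2 and 5.02 CPM, with a log2 fold change of -3.77 for Stmn2 (edgeR adjusted p = 0.00200). The macrophage marker Fcer1g had 0.598, 18.3 and 0 CPM. The second heart field markers Mef2c (-1.91) and Tbx1 (-1.81) were lower in Ho2. The cushion mesenchyme markers went both ways. Sox9 (1.27) and Cthrc1 (1.44) were higher in Ho2, as was Vcan (0.45, not called), and Hapln1 (-2.06) and Twist1 (-1.41) were lower, not called. The sum of 6 cushion markers was 135.0, 165.3 and 238.2 CPM. The part of these transcripts in the Shh and Gas1 values was not tested.

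Within each library Shh was lower in cells with Pax8 than in cells with none of Nkx2-1, Pax8, Pax1 and Pax9. Cells with Nkx2-1 and no Pax8 lay near the latter in Wt1 and Ho2. In the cells with Nkx2-1 and no Pax8 the Shh level was 59.7 CPM in Wt1 and 156.1 in Ho2, and 0 in the 14 cells of Wt2. Cells with Pax8 had no Shh UMI in Wt1 and Wt2, and 52.5 CPM in Ho2. In cells with none of Nkx2-1, Pax8, Pax1 and Pax9, of which there were 201, 73 and 83, the level was 60.0 CPM in Wt1, 89.9 in Wt2 and 147.3 in Ho2. In a fit of this subset alone Shh was higher in Ho2 with a log2 fold change of 1.09 (SE 0.24, edgeR adjusted p = 0.00197), where 131 of 9150 genes (1.43%) were called. The difference was thus smaller than in the whole gate and still called, and the part of the remaining differences in make-up in it was not tested.

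**Figure D2:**
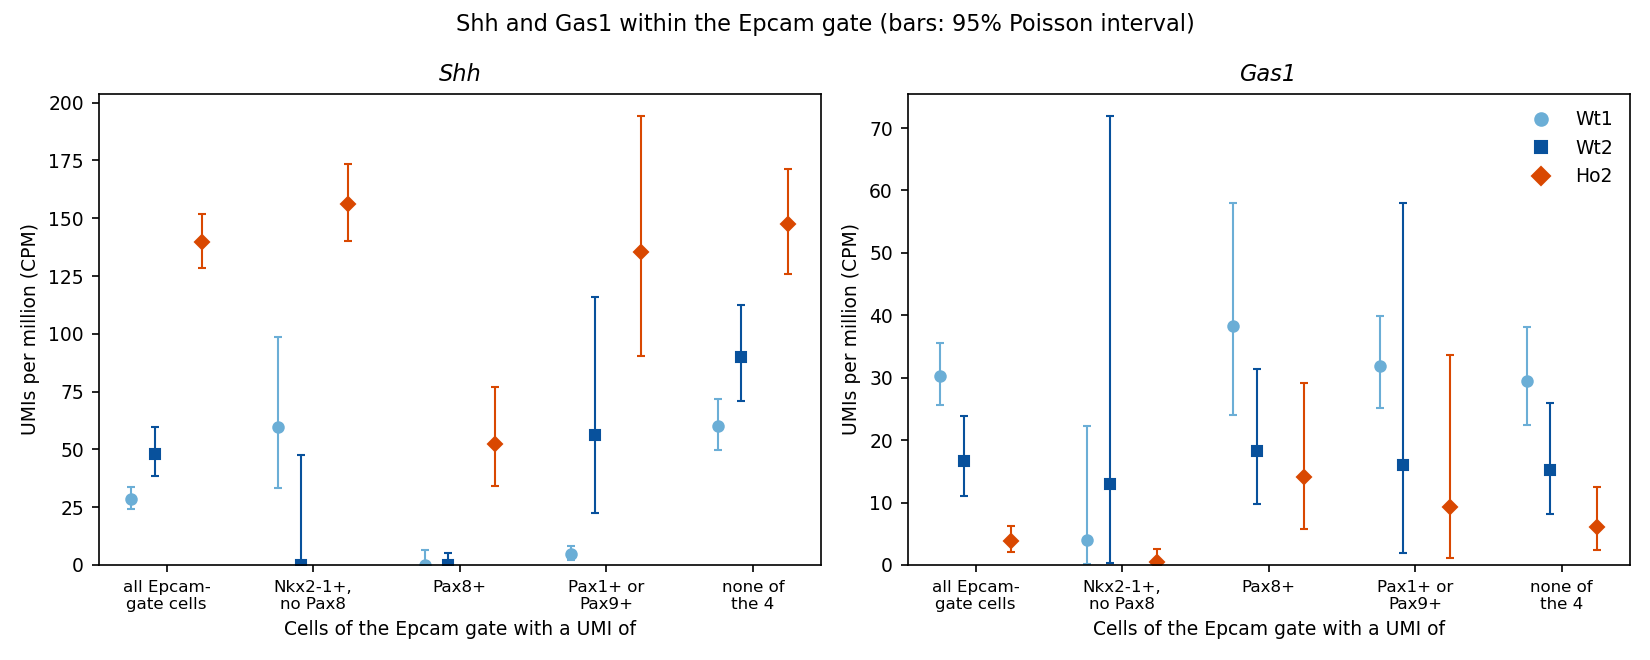
Shh (left) and Gas1 (right) in the cells of the Epcam gate, as CPM (y axis, from 0) for all cells and for subsets by UMIs of Nkx2-1, Pax8, Pax1 and Pax9 (x axis), with 1 point per library and exact 95% Poisson bars. Among cells with none of the 4 genes, Shh stood at 60.0, 89.9 and 147.3 in Wt1, Wt2 and Ho2, and Gas1 at 29.5, 15.2 and 6.03.

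Cells with a Shh UMI were set beside the other cells of the Epcam gate in each library. Since the cells were split by a measured gene, the values are a description. Foxa2, a factor of the ventral foregut that is known to act upstream of Shh, stood at 47.8 CPM in Shh cells and 2.47 in the others in Wt1, at 39.2 and 2.42 in Wt2, and at 51.7 and 15.8 in Ho2. Sox2, a factor of foregut epithelium, was higher in Shh cells too, with 132.8 against 54.4 CPM in Wt1, 162.5 against 30.7 in Wt2 and 55.6 against 19.2 in Ho2. Hhex and Pax8, factors of the thyroid, were lower in Shh cells. Hhex stood at 5.31 CPM in Shh cells and 30.1 in the others in Wt1, and at 0 and 192.3 in Wt2, and Pax8 at 0 and 32.4 in Wt1 and 0 and 206.1 in Wt2. Foxe1, a further thyroid factor, did not keep 1 direction, with 115.1 against 80.0 CPM in Wt1, 334.8 against 515.6 in Wt2 and 38.4 against 226.6 in Ho2. Nkx2-1 was 15.9 against 19.5 CPM in Wt1, 0 against 115.6 in Wt2 and 108.0 against 125.8 in Ho2. Gli1, the transcription factor most often used as a readout of the pathway, had a lower level in Shh cells in each library, with 1.77 against 4.72, 7.83 against 16.2 and 2.16 against 12.5 CPM in Wt1, Wt2 and Ho2. The Shh-cell values rest on 1, 4 and 6 Gli1 UMIs, so the direction in Wt1 is not settled. Ptch1 was 56.7 against 54.2 CPM in Wt1, 66.6 against 135.0 in Wt2 and 39.8 against 103.3 in Ho2. Shh cells were also deeper, with a median of 10565, 12388.5 and 14941 UMIs against 9782, 7243 and 13249.5.

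**Figure D3:**
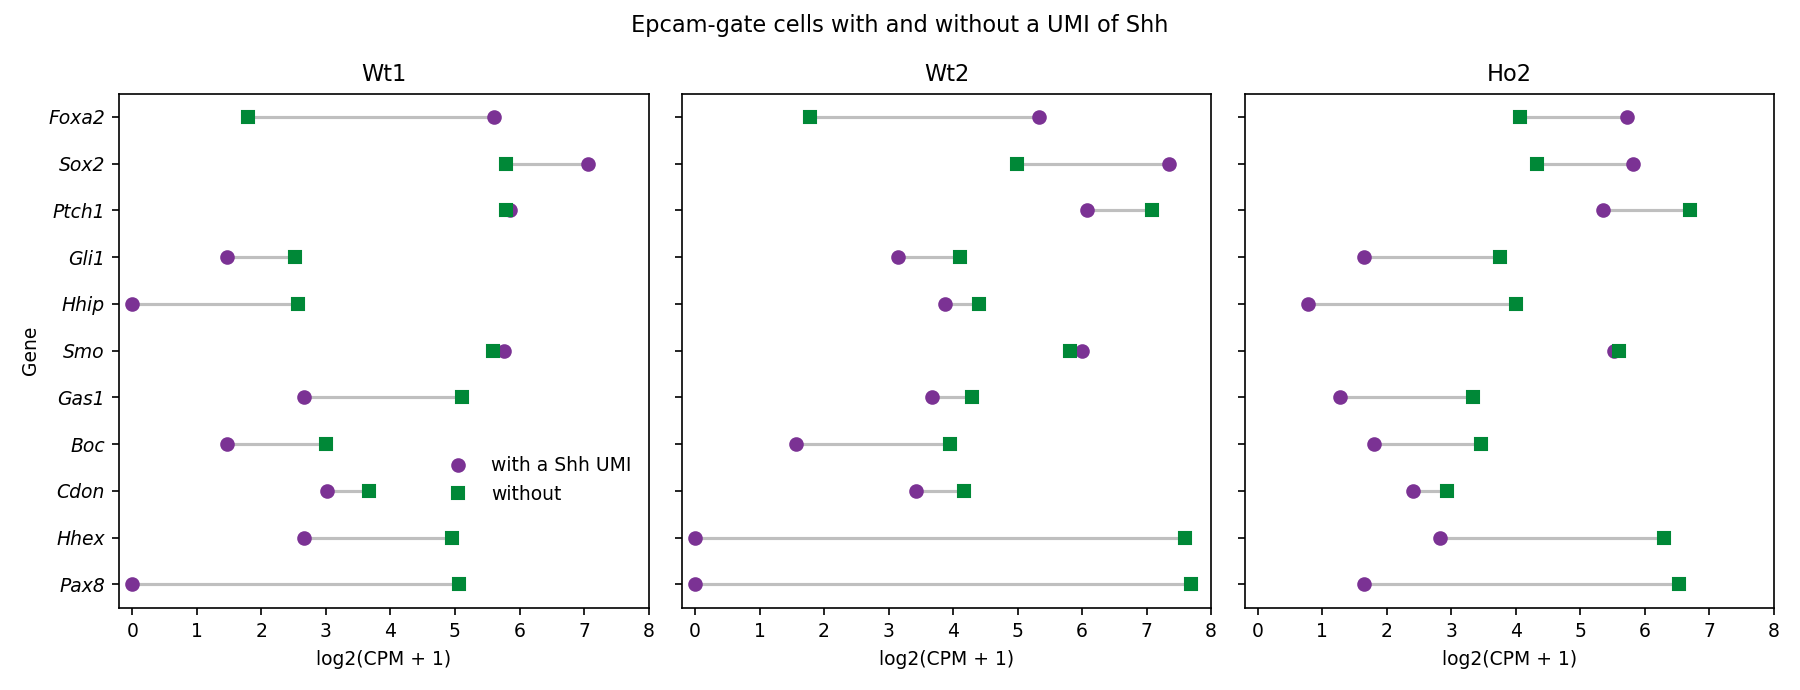
Summed level of 11 genes, as log2(CPM + 1) on the x axis, in Epcam-gate cells with a Shh UMI (purple circles) and without (green squares), in Wt1, Wt2 and Ho2. Foxa2 and Sox2 lie to the right in Shh cells of all 3 libraries, and Gli1, Hhip, Gas1, Boc, Cdon, Hhex and Pax8 lie to the left.

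Across gates, the receiving side of the pathway was tested in 1 fit of 26 gate by library sums and 14640 genes, with the library as a block and each gate set against the mean of the others. In the Isl1 gate, 4 of the 7 members were higher (Ptch1, Hhip, Smo and Boc), where 17.6% of all genes were, and none was lower, where 8.8% were. In the Crabp1+Foxf1 gate, 3 were higher (Ptch1, Hhip and Smo, beside 5.4% of all genes) and none lower (7.83%). Since a Foxf1 UMI chose the cells of this gate, these 3 are a description and not a test of response to the ligand. The Epcam gate had 4 members higher (Shh, Ptch1, Hhip and Smo, beside 22%) and Gas1 lower (20.3%). Gas1 differed between libraries here, since the 3.76 CPM of Ho2 lay below all its other gates, while the 30.3 of Wt1 lay above every gate but Upk3b in that library and the 16.6 of Wt2 above the Tnnt2, Cdh5 and Crabp1+Foxf1 gates. The Upk3b gate had Smo, Cdon and Gas1 higher (20.5%) and Ptch1 lower (16.1%), and the Hapln1 gate had Cdon and Boc higher (24.3%) and Ptch1 and Hhip lower (12.9%). In the Tnnt2 gate no member was higher (36.3%) and 5 were lower (26.5%), with Cdon and Shh outside. In the Cdh5 gate no member was higher (29.8%) and the 6 other than Shh were lower (21.7%). These counts depended on single libraries. Without Wt1, 1 member was called in the Cdh5 gate, where 5964 of 15011 genes were called (7533 of 14640 with all libraries), 1 in the Upk3b gate, where 4109 were (5355 with all), and 1 in the Crabp1+Foxf1 gate, where 625 were (1937 with all). Without Wt2, 1 was called in the Cdh5 gate beside 6267 of 14439 genes, 1 in the Upk3b gate beside 3470 and 3 in the Epcam gate beside 5012 (5 beside 6186 with all). Without Ho2, 2 were called in the Upk3b gate beside 4188 of 14939 genes and 3 in the Epcam gate beside 4977.

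Ptch1, the receptor (chromosome 13, 63508328 to 63573598, minus strand), had its highest mean levels in the Crabp1+Foxf1, Epcam and Isl1 gates. In the Crabp1+Foxf1 gate it stood at 109.6 CPM in Wt1, 86.8 in Wt2 and 80.1 in Ho2. In the Isl1 gate it stood at 79.6, 69.7, 16.2 and 87.7 in Wt1, Wt2, Ho1 and Ho2, so that 3 libraries were close and Ho1 lay far below. In the Epcam gate it was 54.4, 115.0 and 58.9 in Wt1, Wt2 and Ho2. The other gates held between 6.61 and 23.1 CPM. In order of the mean over libraries came Crabp1+Foxf1 (92.2 ± 15.4 CPM, SD, n = 3), Epcam (76.1), Isl1 (63.3), Cdh5 (18.3 ± 1.68, SD, n = 4), Hapln1 (17.5), Upk3b (15.4) and Tnnt2 (14.3), and no gate was separated from the next by the range of its libraries. The Crabp1+Foxf1 and Epcam means lack Ho1, and the Isl1 mean includes its 16.2 CPM. The order of the Epcam and Isl1 gates thus rests on unequal sets of libraries. Against the mean of the other gates, Ptch1 had a log2 fold change of 1.59 (SE 0.36) in the Crabp1+Foxf1 gate, chosen by Foxf1, and 1.12 (SE 0.20, edgeR adjusted p = 6.22e-04) in the Isl1 gate, and of -0.96 (SE 0.23, adjusted p = 0.00146) in the Tnnt2 gate. In cells thinned to 5000 UMIs, a Ptch1 UMI was found in 28.6%, 26.7%, 7.18% and 32.7% of Isl1-gate cells of Wt1, Wt2, Ho1 and Ho2, and in 5.96% to 9.20% of Tnnt2-gate cells.

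Foxf1, a factor of splanchnic mesenchyme that responds to hedgehog signalling, divided the Isl1 gate. Cells with a Foxf1 UMI numbered 539, 299, 5 and 580 in Wt1, Wt2, Ho1 and Ho2, which made 29.2%, 27.5%, 2.37% and 56.9% of the gate. In them Ptch1 stood at 133.3 CPM in Wt1, 123.1 in Wt2 and 111.4 in Ho2. In the cells without Foxf1 it was 52.2, 47.8 and 50.9 in these libraries, and 15.7 in Ho1. Hhip and Gli1 had the same order, with Hhip at 13.7, 19.6 and 26.0 CPM in cells with Foxf1 and 5.78, 5.82 and 9.98 without, and Gli1 at 24.6, 13.8 and 18.5 with and 9.73, 7.90 and 7.53 without. Since Foxf1 is itself a pathway response gene, this split is a description. Ho1 was the lowest library in the cells without Foxf1 as well.

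**Figure D4:**
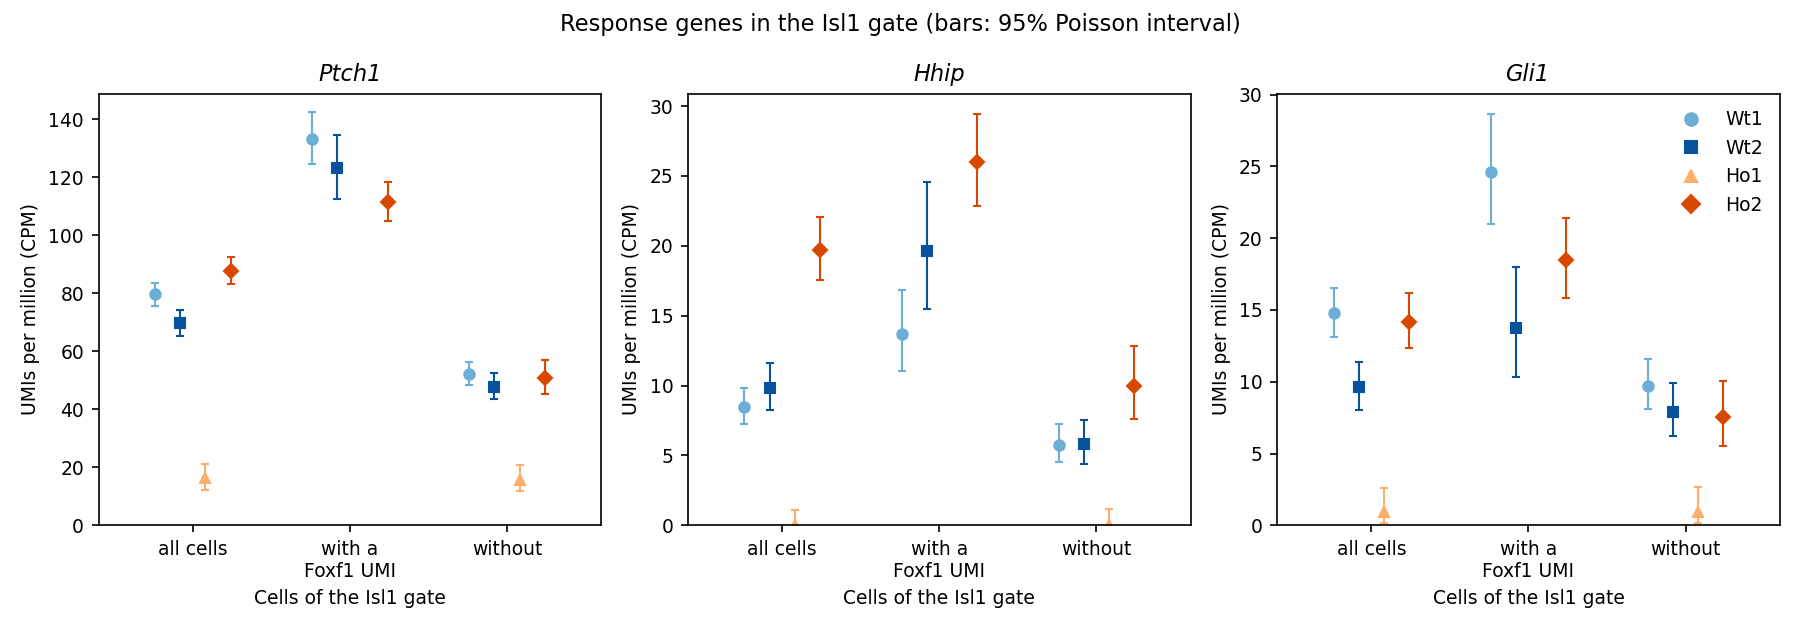
Ptch1, Hhip and Gli1 in the Isl1 gate, as CPM (y axis, from 0), in all cells and in cells with and without a Foxf1 UMI (x axis), with 1 point per library and exact 95% Poisson bars. In Wt1, Wt2 and Ho2 each gene was higher in cells with Foxf1, and Ho1, which has no point there for its 5 cells, lay lowest in the other columns.

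Between genotypes Ptch1 was not called in any gate. In the Isl1 gate its log2 fold change was -0.43 (SE 0.67, edgeR adjusted p = 1.00), and it was 0.27 without Ho1 and -2.16 without Ho2 (edgeR adjusted p = 0.927 and 0.0619). With Foxf1 cells alone it was -0.16 (SE 0.20, adjusted p = 0.976) for Ho2 against Wt, and without Foxf1 -0.51 (SE 0.42, adjusted p = 0.871), where no gene of 12343 was called. In the Crabp1+Foxf1 gate it was -0.37 (SE 0.31) and in the Epcam gate -0.32 (SE 0.33), each with an edgeR adjusted p of 1.00. In 3 gates the ranges of Ho and Wt did not overlap, and not in 1 direction. In the Crabp1+Foxf1 gate the 80.1 CPM of Ho2, the single Ho library, lay below the 109.6 and 86.8 of Wt, an order that 29.3% of 7460 genes had. In the Cdh5 gate Ptch1 was 17.2 and 16.6 CPM in Wt and 20.3 and 19.0 in Ho, a log2 fold change of 0.26 (SE 0.11, edgeR adjusted p = 0.921), where the Ho libraries lay above the Wt libraries for 12.3% of 13417 genes. In the Hapln1 gate it was 16.3 and 13.9 in Wt and 19.9 in both Ho libraries, 0.41 (SE 0.14, adjusted p = 0.761), where 15.1% of 12451 genes had this order.

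Smo, the transducer (chromosome 6, 29735503 to 29761365, plus strand), was detected at 10.9 CPM or more in every gate and library with a sum. Its mean ran from 53.5 CPM in the Crabp1+Foxf1 gate, 50.2 in Epcam, 46.9 in Isl1, 37.5 in Upk3b, 32.1 in Hapln1 and 27.8 in Cdh5 to 13.6 in Tnnt2, and only the Tnnt2 gate was separated from the gate above it. As for Ptch1, the Crabp1+Foxf1 and Epcam means lack Ho1, while the Isl1 mean includes its 30.6 CPM. In the Tnnt2 gate it was 14.6, 13.4, 10.9 and 15.3 CPM in Wt1, Wt2, Ho1 and Ho2, with a log2 fold change against the other gates of -1.25 (SE 0.07, edgeR adjusted p = 1.38e-10). Ho1 had the lowest Smo level in all 5 gates where it had a sum. Between genotypes Smo was not called, with log2 fold changes from -0.22 (SE 0.11, edgeR adjusted p = 0.940) in the Hapln1 gate to 0.10 (SE 0.32, adjusted p = 1.00) in the Crabp1+Foxf1 gate.

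Hhip, the antagonist (chromosome 8, 79965851 to 80058006, minus strand), followed Ptch1. Of its 979 UMIs, 62.1% were in the Isl1 gate and 7.56% in the Epcam gate. In the Isl1 gate it stood at 8.46 CPM in Wt1 (168 UMIs), 9.82 in Wt2 (133) and 19.7 in Ho2 (307), and no UMI was found in Ho1, with an upper Poisson limit of 1.11 CPM. The Ho libraries thus lay on both sides of the Wt libraries, and the log2 fold change was 0.36 (SE 1.07, edgeR adjusted p = 1.00). Among cells with Foxf1 it was 0.71 for Ho2 against Wt (SE 0.25, edgeR adjusted p = 0.608), where 47 of 12220 genes (0.385%) were called. In the Crabp1+Foxf1 gate Hhip was 5.11, 16.2 and 14.7 CPM in Wt1, Wt2 and Ho2, and in the Epcam gate 4.39, 18.3 and 5.02. The Epcam gate was separated from the gates below it, whose means ran from 1.76 CPM in Upk3b to 0.185 in Hapln1.

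Over the 26 sums, log2(CPM + 1) of Hhip and Ptch1 had a Pearson correlation of 0.917, the closest of the 21 pairs of members. The sums share libraries and gates, and their depths differ, so this is a description. The 250 bases before the RefSeq start of each gene (GRCm38.p6, minus strand, chr13:63565736-63565985 for Ptch1 and chr8:80058009-80058258 for Hhip, written 5′ to 3′) are shown because these 2 receiving-cell genes moved together. The stretches had a GC content of 78.4% and 76.0%. By the gene positions given above, the Ptch1 stretch lies inside the gene, while the Hhip stretch lies just before it.
Ptch1: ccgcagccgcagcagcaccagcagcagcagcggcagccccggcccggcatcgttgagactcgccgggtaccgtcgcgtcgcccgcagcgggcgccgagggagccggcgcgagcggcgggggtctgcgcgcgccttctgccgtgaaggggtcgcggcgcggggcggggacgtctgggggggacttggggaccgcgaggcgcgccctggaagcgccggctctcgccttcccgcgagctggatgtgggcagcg
Hhip: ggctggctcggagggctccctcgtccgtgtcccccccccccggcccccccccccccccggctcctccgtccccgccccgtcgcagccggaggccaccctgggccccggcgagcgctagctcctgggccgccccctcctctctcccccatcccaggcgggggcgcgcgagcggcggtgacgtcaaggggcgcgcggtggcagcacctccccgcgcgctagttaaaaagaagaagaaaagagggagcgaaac
The Gli site GACCACCCA, searched on both strands (reverse TGGGTGGTC) from 250 bases before to 50 bases after the start, was in none of the 5 member windows that RefSeq matched and in 83 of 32851 windows of all genes (0.253%). Only this window and these letters were searched.

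The co-receptors did not share 1 pattern. Cdon (chromosome 9, 35421128 to 35507652, plus strand) was highest in the Hapln1 gate, with 17.8, 16.4, 19.3 and 19.2 CPM in Wt1, Wt2, Ho1 and Ho2. Its mean of 18.2 ± 1.38 CPM (SD, n = 4) there was separated by range from the next gate, Upk3b (11.7), and its range overlapped that of the Isl1 gate (4.04 to 17.1). Against the other gates it had a log2 fold change of 1.49 (SE 0.22, edgeR adjusted p = 4.18e-05) in the Hapln1 gate and -0.90 (SE 0.33, adjusted p = 0.0309) in the Cdh5 gate. In the Crabp1+Foxf1 gate, where Ptch1 was high, Cdon had 11 UMIs in 3 libraries. Boc (chromosome 16, 44485049 to 44558897, minus strand) was highest in the Isl1 gate, with 11.7, 10.3, 13.5 and 6.48 CPM, and in the Hapln1 gate, with 9.98, 9.87, 8.29 and 11.7, and lowest in the Tnnt2 gate, with 0.843 to 1.85. Both genes were lower in Ho2 than in the other libraries in the Isl1 gate, Cdon with 4.04 CPM against 8.41 to 17.1. In the Foxf1 cells of that gate the log2 fold change of Ho2 against Wt was -1.81 for Cdon (SE 0.58, 74 UMIs, edgeR adjusted p = 0.491) and -1.11 for Boc (SE 0.34, 134 UMIs, adjusted p = 0.463).

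Gas1 (chromosome 13, 60174405 to 60177365, minus strand) was highest in the Upk3b gate and even over its libraries, with 80.6, 89.4, 82.9 and 79.4 CPM in Wt1, Wt2, Ho1 and Ho2. This gate, at 83.1 ± 4.47 CPM (SD, n = 4), was separated from the Hapln1 (23.6), Isl1 (23.6), Crabp1+Foxf1 (18.9), Epcam (16.9), Cdh5 (14.4) and Tnnt2 (10.2) gates, with a log2 fold change against the others of 2.47 (SE 0.12, edgeR adjusted p = 4.11e-11). Gas1 was lower in the Epcam gate of Ho2. The level was 30.3 CPM in Wt1 (152 UMIs), 16.6 in Wt2 (29) and 3.76 in Ho2 (15). Crabp1 had the same order in this gate, while the other mesenchyme markers of its list went both ways. The log2 fold change of Gas1 was -2.56 (SE 0.51), and it was called in edgeR. This call was lost under DESeq2 (-2.52), with lower (-1.46) and higher (-2.92) marker limits, and in gates on cells thinned to 5000 UMIs (-2.98). In the cells with none of Nkx2-1, Pax8, Pax1 and Pax9 it was 29.5, 15.2 and 6.03 CPM, and the log2 fold change was -1.89 (SE 0.54, adjusted p = 0.0444). The genotype effect on Gas1 in the Epcam gate also differed from its mean effect in the other gates, by -2.66 on the log2 scale (SE 0.47, edgeR adjusted p = 0.0196). Gas1 was the 1 member among the 65 genes (0.444%) with such a difference in this gate, and no member had one in the other 6 gates, where 0% of genes had one, or 0.00683% in the Crabp1+Foxf1 gate. The call was lost without Wt1, without Wt2 and at lower marker limits. In the Tnnt2 gate Gas1 was 9.50, 8.80, 8.20 and 14.3 CPM, so that Ho2 stood above the other libraries, with a log2 fold change of 0.27 (SE 0.20, edgeR adjusted p = 0.841). Without Ho1 it was 0.59 (edgeR adjusted p = 0.0193), with Ho2 as the single Ho library and assumed to vary like the Wt libraries, where 184 of 15033 genes (1.22%) were called.

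**Figure D5:**
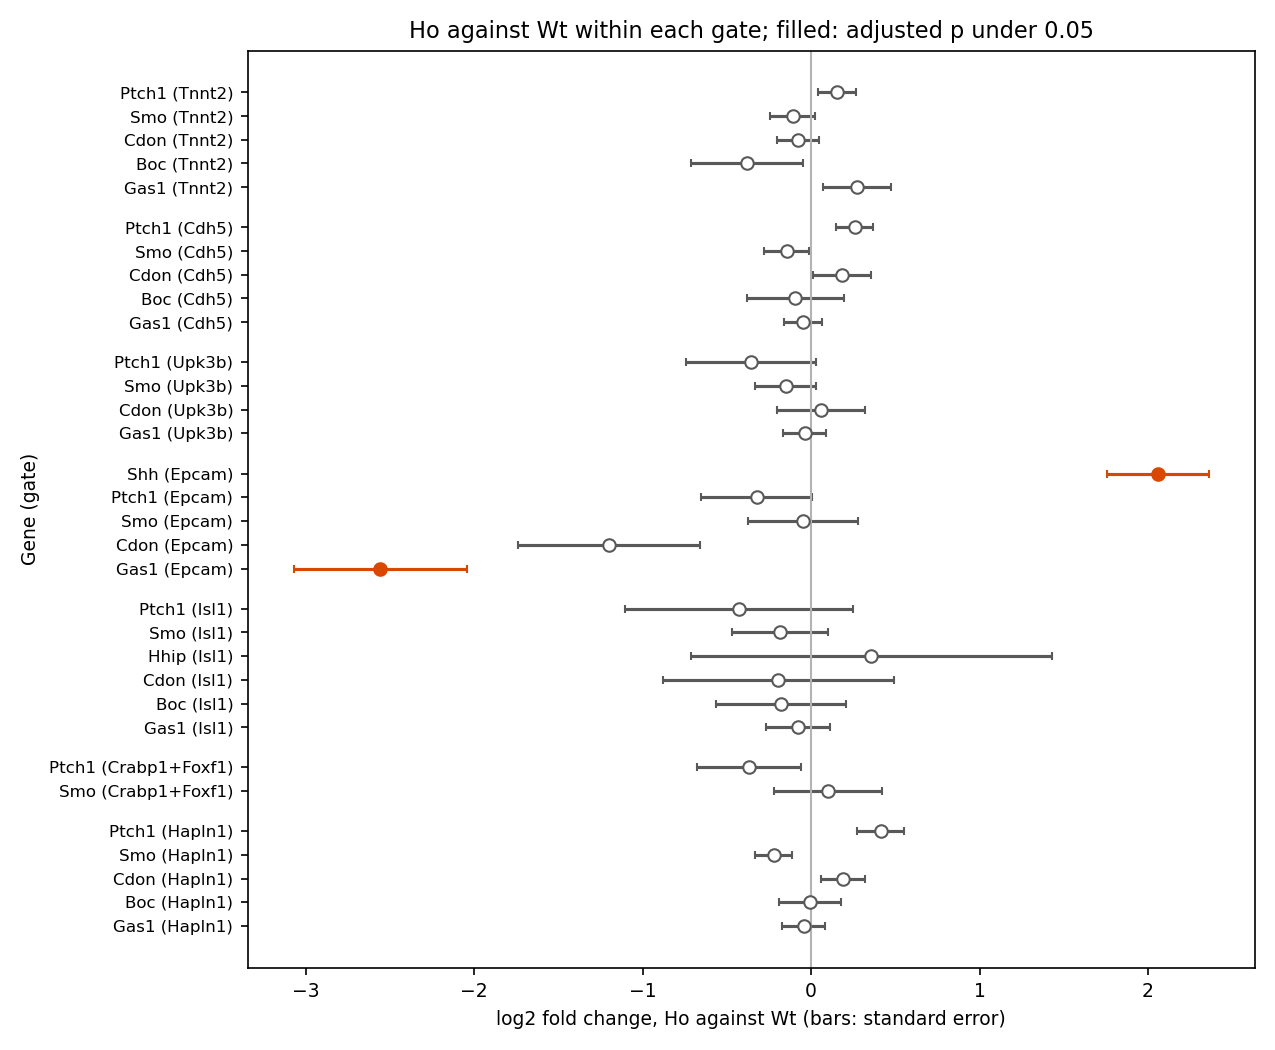
Log2 fold change of Ho against Wt (x axis, edgeR, bars are standard errors) for each member and gate with at least 100 UMIs (y axis), with 2 Ho libraries except in the Epcam and Crabp1+Foxf1 gates, where Ho2 stood alone. Shh (2.06) and Gas1 (-2.56) in the Epcam gate, filled, had an adjusted p under 0.05 in this fit, which Gas1 lost under DESeq2 and other marker limits and both lost in gates on thinned cells, and the others lay between -1.20 and 0.41.

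Between genotypes the members were thus called in 1 gate of 7. In the Tnnt2, Cdh5 and Isl1 gates no gene of 14664, 13417 and 13245 was called (0%), and 930, 701 and 344 had an unadjusted p under 0.05. DESeq2 called 19, 21 and 5 genes there, and no member. In the Upk3b gate 6 of 10513 genes (0.0571%) were called, in the Crabp1+Foxf1 gate 4 of 7460 (0.0536%) and in the Hapln1 gate 9 of 12451 (0.0723%), again no member. The numbers of members that passed the filter were 6 in the Tnnt2 and Isl1 gates, 5 in the Cdh5, Upk3b and Hapln1 gates and 4 in the Crabp1+Foxf1 gate. In the Epcam gate Cdon fell short of a call at -1.20 (SE 0.54, edgeR adjusted p = 0.549), with 11.2, 14.9 and 5.02 CPM. In whole-library sums, where fewer cells of a type and less RNA per cell cannot be told apart, no gene of 16978 was called (0%), and Ptch1 stood at 38.2, 23.9, 16.0 and 32.1 CPM in Wt1, Wt2, Ho1 and Ho2.

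Of 44 other genes of the pathway, fixed as a list, 2 were called between genotypes. The cyclin gene Ccnd1 stood at 45.3, 39.5 and 154.0 CPM in the Epcam gate of Wt1, Wt2 and Ho2 (log2 fold change 1.98, SE 0.30, edgeR adjusted p = 1.4e-05), 1 of 39 tested list genes (2.56%, beside 1.56% of all genes). The call was lost at lower marker limits (1.20, edgeR adjusted p = 0.0899) and in thinned gates (2.00, adjusted p = 0.0590). The transcription factor gene Osr1 stood at 6.57, 22.2 and 93.5 CPM in the Crabp1+Foxf1 gate (3.15, SE 0.45, edgeR adjusted p = 0.0144), 1 of 25 tested list genes (4%, beside 0.0536% of all genes). This rests on the 49 cells of Ho2 alone, and the call was lost under DESeq2 (2.87, adjusted p = 0.999), which called 0 genes in this gate where edgeR called 4, and in thinned gates (1.01, edgeR adjusted p = 1.00). Against the other gates, 16 of 42 tested list genes (38.1%) were higher in the Isl1 gate, where 17.6% of all genes were, and 0 lower (8.8% of all), with a median log2 fold change of 0.25 beside 0.07 for all genes. They were led by Foxf2 (4.39, SE 0.31), Foxf1 (3.43, SE 0.17), Gli1 (2.94, SE 0.32) and Osr1 (1.81, SE 0.25). The Crabp1+Foxf1 gate had 9 higher (21.4%, beside 5.4% of all genes) and 1 lower (2.38%, beside 7.83%). Foxf1, which chose the cells, is 1 of the 9, and Foxf2 (4.64) and Gli1 (3.21) are further ones, so that this count is a description. The Epcam gate had 9 higher (21.4%, beside 22%) and 8 lower (19%, beside 20.3%), shares near those of all genes, with the endocytic receptor Lrp2 (4.41, SE 0.42) as the first. Gli1 was lower in the Tnnt2 (-2.37, SE 0.53) and Cdh5 (-4.22, SE 0.66) gates. The Tnnt2 gate had 15 list genes higher (35.7%, beside 36.3% of all genes) and 16 lower (38.1%, beside 26.5%), and the Cdh5 gate 9 higher (21.4%, beside 29.8%) and 17 lower (40.5%, beside 21.7%). Scube2, which helps release of the ligand, was higher in the Tnnt2 gate (5.14, SE 0.26), with 5.16 to 6.86 CPM there. The Upk3b gate had 6 higher (14.3%, beside 20.5%) and 11 lower (26.2%, beside 16.1%). Lrp2 was higher in the Upk3b gate too (4.36, SE 0.35). The Hapln1 gate had 9 higher (21.4%, beside 24.3%) and 6 lower (14.3%, beside 12.9%), again near the shares of all genes.

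By the highest Pearson correlation of log2(CPM + 1) over the 26 sums, among 15028 genes, the patterns most like those of the members were as follows. Shh was closest to Mal2 (0.999), Vtn (0.997) and Foxa2 (0.994). Ptch1 was closest to Saa1 (0.960), Ctnnbl1 (0.958) and Saa2 (0.937), and Hhip to Adamts18 (0.964), Gli1 (0.953) and Saa2 (0.939). Smo was closest to Ddx39b, Smarcb1 and Fubp1 (0.966 to 0.968). Cdon was closest to Garnl3 (0.903), Lrrk1 (0.861) and Adamtsl5 (0.856), Boc to Fip1l1 (0.930), Gorab (0.914) and Nipa1 (0.910), and Gas1 to Hpgd (0.918), Efemp1 (0.917) and Sphk1 (0.887). The sums share libraries and differ in depth, so these are descriptions.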

How the data were processed

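Raw UMI counts of 4 single-cell libraries of E10.5 mouse hearts (10x Genomics 3′ chemistry) were used as deposited. The authors produced these counts with Cell Ranger 6.1.1 on mm10 (GRCm38), and no normalization had been applied. The submitters' processing notes also name Seurat 4.1.0. Barcodes were kept by the study's limits (at most 20% mitochondrial counts, 500 to 50000 UMIs, 500 to 6000 genes), and doublets were removed with Scrublet (scanpy 1.11.5) (5.17% to 7.73% of a library), which left between 6126 and 8908 cells and 97004419 to 113596628 UMIs per library. Cells with more than 1 of the Tnnt2, Cdh5, Upk3b and Epcam criteria were set aside as mixed.

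Cells are not replicates, so counts were summed per gate and library, where a gate had at least 20 cells. edgeR 4.0.16 in R 4.3.3 tested Ho against Wt in each gate and gates against each other (quasi-likelihood test, TMM, filterByExpr, Benjamini-Hochberg adjustment over all genes, threshold 0.05). The tests were run on simulated counts with the same spread for every gene and no difference in cell make-up between libraries. That setting does not cover the differences in make-up found here. Fold changes are given for members with at least 100 UMIs in a gate. Named were the members, markers, the 5 list genes with the largest change per gate among those called, and the 3 genes most correlated with each member. The split of the Epcam gate by Nkx2-1, Pax8, Pax1 and Pax9, and of the Isl1 gate by Foxf1, was chosen after the data were seen, as were Wnt7b, Sftpa1, Ihh and the genes shown for Shh cells. The members and all gene lists were chosen with earlier results of these data known. Intervals are exact 95% Poisson or binomial (Clopper-Pearson) intervals and, like the limit of 3 counts for a count of 0, cover counting error only.

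Alternatives were DESeq2 1.42.0, RLE normalization, no filter on low counts, a block for the replicate number, each library left out in turn, doublets kept, at most 10% mitochondrial counts, lower (1 UMI) and higher (4 UMIs, 2 for Isl1 and Foxf1) marker limits, Crabp1 with Foxf1 gated before Isl1, gates on cells thinned to 5000 UMIs, and thinning to 2000 UMIs or none for shares of cells. Positions are from GENCODE M21 on GRCm38 and promoters from RefSeq on GRCm38.p6.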

Additional observations from a re-analysis of the deposited data

Results flagged for a closer look

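The effect of the genotype on Gas1 in the Epcam gate differed from its mean effect in the other gates by -2.66 on the log2 scale (edgeR, interaction term, adjusted p = 0.0196). The call was lost without Wt1, without Wt2 and at lower marker limits. It rests on Ho2 alone on the Ho side, and the make-up of the epithelium differed between libraries. Cells with Nkx2-1 and no Pax8 were 5.31%, 7.73% and 51.1% of the gate in Wt1, Wt2 and Ho2, with Gas1 at 3.98, 12.9 and 0.449 CPM in those cells. In cells with none of Nkx2-1, Pax8, Pax1 and Pax9 the log2 fold change of Gas1 was -1.89. In the whole gate Gas1 stood at 30.3, 16.6 and 3.76 CPM. Crabp1, 1 of 6 markers of splanchnic and pharyngeal mesenchyme, had the same order as Gas1 in the whole gate, at 239.7, 152.2 and 39.9 CPM in these libraries. The other markers of that list went both ways in Ho2. Their log2 fold changes were 1.17 for Osr1, 0.96 for Wnt2, 0.30 for Foxf1, -1.06 for Prrx1 and -1.03 for Pdgfra. The part of this make-up in the difference was not tested.

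Hhip had a signal in cells that met no gate. In these ungated cells it stood at 19.9 CPM in Ho2 (90 UMIs, exact 95% Poisson interval 16.0 to 24.5), against 1.86 CPM in Wt1 (41 UMIs), 3.45 in Wt2 (13 UMIs) and 0.267 in Ho1 (1 UMI). The 586 ungated cells of Ho2 also held Foxf1 at 79.3 CPM and Osr1 at 67.8 CPM, against at most 10.3 and 9.28 in the other libraries. The link between these values was not tested. Other members were found in ungated cells too, and in Wt1 Smo had 1142 UMIs there (51.7 CPM), Gas1 926 (41.9 CPM) and Ptch1 788 (35.7 CPM). In the ungated cells of Wt2, Ho1 and Ho2 these genes stood at 19.5 to 41.8, 14.3 to 28.1 and 9.87 to 43.6 CPM.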

How the results depend on the processing

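Of the log2 fold changes of members between genotypes, 20 of 32 changed sign under at least 1 alternative, and neither of the called ones, Shh and Gas1 in the Epcam gate, did. Shh kept its call except in gates on thinned cells (log2 fold change 2.27, edgeR adjusted p = 0.0537). Gas1 lost it under DESeq2 (-2.52), lower (-1.46) and higher (-2.92) marker limits and thinned gates (-2.98). In each of these settings fewer of all genes tested in the Epcam gate were called as well, so the lost calls were not particular to the members. In the interaction the 1 member called in the Epcam gate (beside 65 of 14640 genes) became 2 without a filter (beside 293 of 23788) and 0 under lower limits (beside 26 of 14065).

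Leaving out a library moved the members called between genotypes to 0 to 1 in the Tnnt2 gate (1 without Ho1). Between gates the members called ranged from 1 to 6 in the Cdh5, 1 to 4 in the Upk3b, 3 to 5 in the Epcam and 1 to 4 in the Crabp1+Foxf1 gate (1 without Wt1). In the interaction the call of Gas1 in the Epcam gate was lost without Wt1 and without Wt2, where fewer of all genes were called as well. In the Isl1 gate a member was called in the interaction without Ho2, where Ho1 stood as the single Ho library. Genes outside the member list were called there too, against 0 of 14640 genes with all libraries. Log2 fold changes ranged in the Tnnt2 gate from -0.30 to 0.072 for Smo and -0.10 to 0.59 for Gas1, in the Cdh5 gate from -0.34 to 0.041 for Smo, -0.44 to 0.26 for Boc and -0.11 to 0.011 for Gas1, in the Upk3b gate from -1.32 to 0.11 for Ptch1, -0.41 to 0.037 for Smo, -0.20 to 0.24 for Cdon and -0.095 to 0.031 for Gas1, in the Isl1 gate from -2.16 to 0.27 for Ptch1, -0.69 to 0.15 for Smo, -1.43 to 0.66 for Cdon, -0.73 to 0.34 for Boc and -0.23 to 0.10 for Gas1, and in the Hapln1 gate from -0.23 to 0.24 for Boc and -0.17 to 0.10 for Gas1. In the Epcam and Crabp1+Foxf1 gates leaving out a Wt library left 1 library against 1 and no test, and without Ho2 there was no Ho library. Without Ho2, Hhip in the Isl1 gate had no Ho UMI and no fold is given.

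None of the other sign changes concerned a called value. They were Cdon in the Tnnt2 gate with doublets kept (0.017), Boc in the Cdh5 gate at lower (0.14) and higher (0.38) limits, Gas1 in the Cdh5 gate (0.11) and the Upk3b gate (0.13) in thinned gates and in the Upk3b gate at lower limits (0.082), Ptch1 in Epcam-gate cells without the 4 genes (0.28), Gas1 in Isl1-gate cells with Foxf1 (0.23), Smo in the Crabp1+Foxf1 gate when gated before Isl1 (-0.0050) and thinned (-0.00020), and Boc in the Hapln1 gate under DESeq2 (0.0064) and thinned (0.10). The causes were not tested.

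Same-numbered libraries did not deviate together (correlations from -0.473 in whole libraries to 0.012 in the Hapln1 gate). The libraries also differed in cell make-up, so these correlations cannot settle whether the numbers pair the samples. With the replicate block, members called stayed at 0 in the Tnnt2, Cdh5, Upk3b, Isl1 and Hapln1 gates and whole libraries, genes called went from 0 to 58, 0 to 0, 6 to 39, 0 to 0, 9 to 58 and 0 to 0, and Hhip in the Isl1 gate (-0.57) and Boc in the Hapln1 gate (0.0065) changed sign. The block could not be fitted in the Epcam and Crabp1+Foxf1 gates. With the crossed pairing, added after the data were seen, 48, 82, 13, 0, 27 and 72 genes and 0 members were called, and Hhip in the Isl1 gate was -0.087.

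The share of Shh UMIs in the Epcam gate was 89.2% in Wt1 and 94.7% in Ho2 with doublets kept, 86.4% in Wt2 and 93.6% in Ho2 at lower limits, and 83.0% and 96.8% at higher limits. The shares of cells with a UMI fell with thinning, and still differed between libraries at 2000 UMIs. Thinned to 2000 UMIs, Shh was found in 5.26%, 2.84% and 19.6% of Epcam-gate cells of Wt1, Wt2 and Ho2 (64.4% in Ho2 without thinning). For Ptch1 in the Isl1 gate the shares in Wt1, Wt2, Ho1 and Ho2 were 13.7%, 12.6%, 2.37% and 17.5% at 2000 UMIs, and 44.3%, 46.6%, 22.7% and 58.8% without thinning. Genes called in the Epcam gate were 81 with RLE normalization (67 higher and 14 lower, against 109 and 82) and 18 with DESeq2, against 191, and in the Crabp1+Foxf1 gate 29 and 0, against 4. Without a filter 214, 222, 121, 281, 167, 50 and 138 genes were called in the Tnnt2, Cdh5, Upk3b, Epcam, Isl1, Crabp1+Foxf1 and Hapln1 gates, and DESeq2 called 19, 21, 5, 14 and 22 in the Tnnt2, Cdh5, Isl1 and Hapln1 gates and whole libraries. The 26 UMIs of Shh in Pax8 cells of Ho2 are too few to test, and 1 Ho library in the epithelium gives no spread of its own.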

Other observations

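Shh was not the only hedgehog ligand in these hearts. Dhh, the ligand of endothelium and nerve sheaths, was found in the Cdh5 gate at 16.0, 14.2, 12.1 and 20.7 CPM in Wt1, Wt2, Ho1 and Ho2, and in the Hapln1 gate at 16.6, 15.2, 15.8 and 16.7. These gates held 59.2% and 29.8% of its 2256 UMIs. Against the mean of the other gates the log2 fold change of Dhh was 5.86 in the Cdh5 gate (SE 0.45, edgeR adjusted p = 8.15e-08) and 5.81 in the Hapln1 gate (SE 0.48, adjusted p = 5.74e-07), and Dhh was not called between genotypes in either. The summed CPM of 6 endothelial markers was 364 to 472 in the Hapln1 gate, 1535 to 1748 in the Cdh5 gate and 35.4 to 186 in the other gates, and their part in the Dhh level of the Hapln1 gate was not tested. In the same gates Gli1 was at most 1.02 CPM. Ihh was scarce, with 58 UMIs in all cells, of which 3 lay in the Epcam gate of Wt1, 0 in that of Wt2 and 22 in that of Ho2 (edgeR adjusted p = 0.162).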
